A study of Rattus norvegicus with 58 samples.

Results

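In synovial RNA from 20 saline-treated arthritic rat libraries, 150 genes were selected on their deposited log2 values, as those that 3 libraries held at higher levels than the other 17 did. The 3 were replicate 2 after 1 day, replicate 4 after 3 days and replicate 1 after 5 days of saline. For each row of the deposited log2 table, D was the mean of the 3 minus the mean of the other 17. Rows had to average at least 3 in the 3 libraries, and their untreated arthritic and naive means had to differ by less than 1 (log2). Of 16879 rows with an identifier, 5367 met both limits, and the 150 with the highest D were taken. Genes are referred to here by their rank in D, from 1 for the highest.

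Synovium is the lining of the joint, a thin layer of macrophages and fibroblasts over connective tissue with vessels and fat. Pristane, a hydrocarbon oil, causes T cell-dependent polyarthritis in susceptible rats, in which the lining thickens and fills with leukocytes. RTD-1, rhesus theta-defensin 1, is a ring-shaped peptide of monkey leukocytes that acts on microbes and dampens inflammatory cytokines. In bulk tissue, a lower level can reflect fewer cells of a type or less RNA per cell, and these cannot be told apart.

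All 58 libraries came from female DA/OlaHsd rats. Pristane-induced arthritis (PIA) was started at 6 to 8 weeks of age with 250 µl of the oil, and treatment began once a rear limb scored at least 3. Arthritic rats were sampled untreated (n = 4), after saline for 1, 3 or 5 days (n = 4, 8 and 8), or after RTD-1 at 5 mg per kg under the skin for 1, 3 or 5 days (n = 4, 8 and 8). Rats without pristane were naive (n = 4) or received RTD-1 for 3 or 5 days (n = 5 each), and no healthy saline group was analysed here. The labels do not tie libraries to animals, so p-values rest on the spread from library to library, which may be partly technical. The table used here pairs no identifier with a gene symbol. Gene functions, the check of the tissue by marker genes and any sequence of the 150 genes were therefore not analysed here.

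Libraries held between 464693 and 7716834 reads in genes. The 3 saline libraries were deeper than the other 17, with 4.51 to 6.42 megareads in genes against 1.02 to 2.45. The 20 PIA RTD-1 libraries held 0.465 to 3.75 megareads and the 10 healthy RTD-1 libraries 4.44 to 7.72. Levels are given as normalized reads, which are whole reads recovered from the table and brought to a common depth, that of the median library. Thinning every library to at most 1500000 reads draws reads at random within a library, which keeps a share of reads near its value by design. The 150 genes then held 1.99% to 2.33% of reads in the 3 libraries and 0.377% to 0.728% in the other 55. Nothing about depth is read from these shares.

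The 150 genes made up 2.34% of reads in the day 1 library (95% Wilson interval 2.33 to 2.36), 2.26% in the day 3 library (2.25 to 2.28) and 1.97% in the day 5 library (1.96 to 1.98). These intervals cover counting error alone. The other 17 saline libraries held 0.378% to 0.466% and the 20 PIA RTD-1 libraries 0.383% to 0.480%. Untreated PIA libraries held 0.403% to 0.498% and naive libraries 0.393% to 0.447%. Healthy RTD-1 libraries lay between, at 0.622% to 0.727%, above every naive and every arthritic library outside the 3. The 3 saline libraries stood above all others because the rule chose the genes for that, but no healthy RTD-1 library entered the rule.

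**Figure D1:**
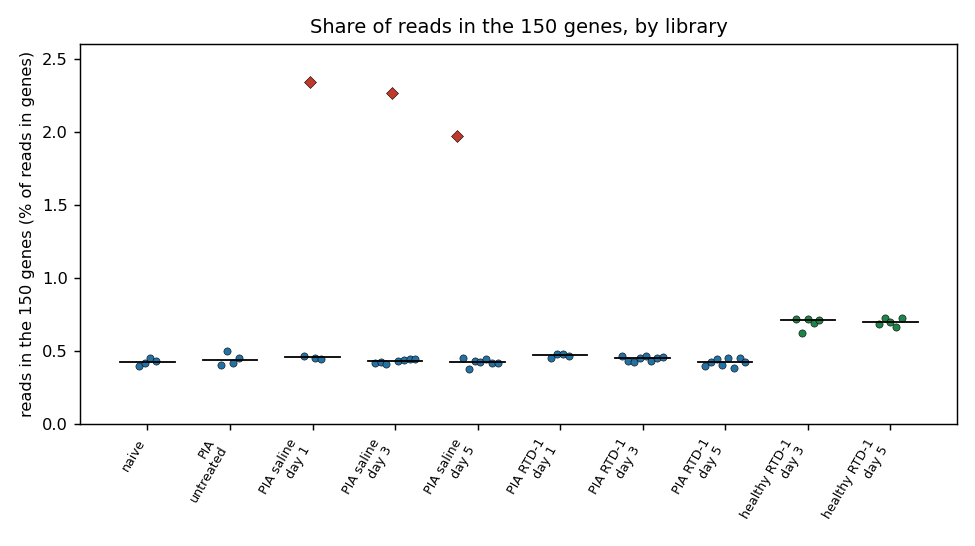
Share of reads in genes that fell in the 150 genes, in percent, for each of 58 libraries by group, with the 3 libraries that defined the rule as red diamonds, healthy RTD-1 libraries in green and group medians as lines. The 3 lie at 1.97% to 2.34%, the healthy RTD-1 libraries at 0.622% to 0.727% and all others at or under 0.498%.

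Within the rule's limits the 150 genes were the upper end of a skewed spread. D reached 1 in 148 of the 5367 rows, all of them among the 150, while 38 rows were at -1 or less, and the median row was at -0.01. The median D of the 150 was 1.96, with 71 at 2 or more, 39 at 4 or more, 23 at 6 or more and 8 at 8 or more. At the edge of the list, the last 2 genes inside had D of 0.997 and 0.993, and the next 2 rows outside had 0.993 and 0.981. The row that took the most reads in the 3 libraries was not among the 150. It took 8.63% of reads in genes in the day 1 library, 10.1% in the day 3 library and 7.59% in the day 5 library, and at most 0.389% in any other. Its D was 9.89, but its mean untreated PIA level was 3.92 below its mean naive level on the log2 scale, outside the rule's limit. The untreated PIA libraries were far apart, at 2.25, 2.98, 3.34 and 5881 normalized reads, and the naive libraries held 244 to 383.

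The 3 libraries resembled each other over the 150 genes. Each of the 3 stood above the mean of the other 17 for 150 of 150 genes, with a median excess of 2.03 log2 on day 1, 1.90 on day 3 and 1.86 on day 5. The highest of the 3 was a median of 1.28 times the lowest, and under 2 times for 147 genes. The 3 exceptions, singled out after their values were seen, were the genes ranked 39 (2.33 times), 88 (4.33 times) and 116 (2.14 times). The day 1 library was the highest of the 3 for 71 genes, the day 3 library for 31 and the day 5 library for 48. Across the 150 genes, which are not independent replicates, log2 levels in pairs of the 3 libraries had Pearson r of 0.971, 0.958 and 0.980.

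For 143 of the 150 genes the lowest of the 3 libraries exceeded the highest of the other 17, against 2.63% of all rows. The 3 also lay above all 20 PIA RTD-1 libraries for 136 genes (2.27% of all rows) and above all 10 healthy RTD-1 libraries for 118 (10.1%). They exceeded all 55 other libraries for 113 genes (1.39% of all rows). The choice of genes by the 3 libraries fixes these counts, and nothing is read from them.

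**Figure D2:**
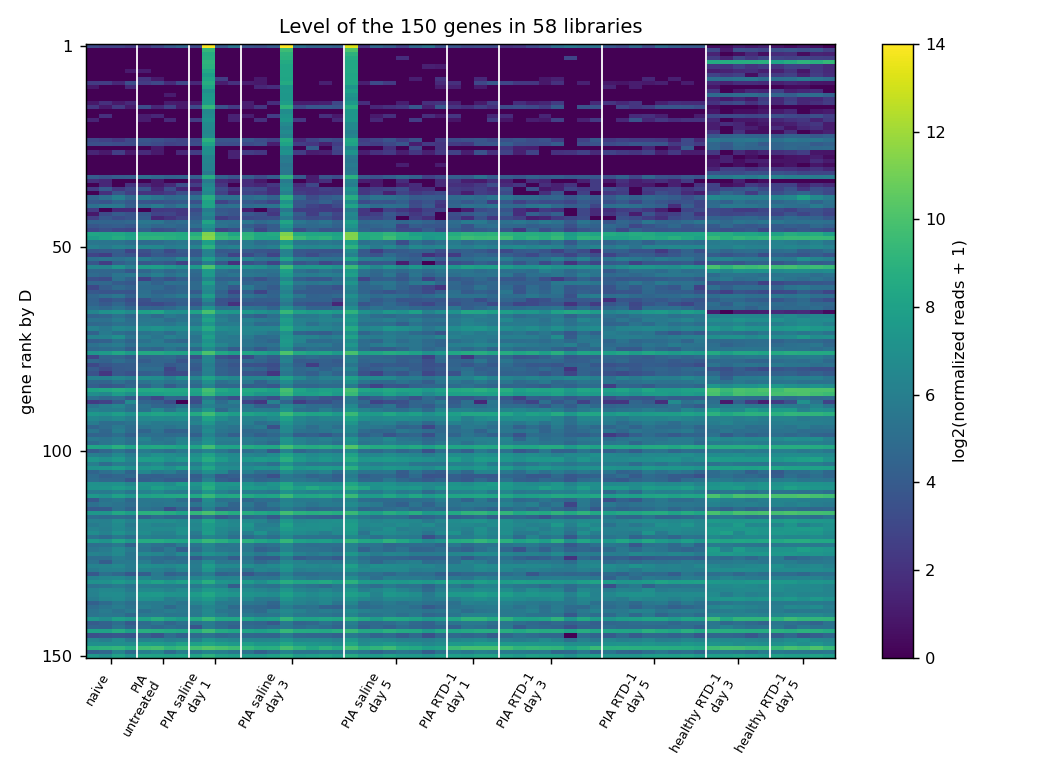
Level of each of the 150 genes (rows, ordered by rank in D) in each of 58 libraries (columns, grouped, with white lines between groups), as log2(normalized reads + 1). The 3 saline libraries appear as bright columns through the upper 50 ranks, where most other libraries are dark and the healthy RTD-1 libraries at the right are partly filled.

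By their level in the other 17 saline libraries the genes fell into 3 classes. 16 genes had 0 reads in all 17, 21 had 0 reads in some of them, and 113 had reads in every one.

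The class of 16, ranked between 2 and 32, was silent outside a few libraries. Together they had 6161 reads in the day 1 library, 8145 in the day 3 library and 10143 in the day 5 library, and each of the 16 was detected in each of the 3. Their mean over the 3 ran from 48.05 to 838 normalized reads, with a median of 141. None had a read among the 32177171 reads in genes of the 17 other saline libraries. Against a floor of 3 reads over those 17, the 3 libraries were at least 230-fold to at least 4009-fold higher, with a median bound of 675-fold.

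The same 16 genes were also at 0 reads in all 20 PIA RTD-1 libraries, among 41948078 reads in genes. Of the 16, 14 were at 0 reads in the untreated PIA and naive libraries as well. The other 2 were the gene ranked 7, with 1 read in each of those groups, and the gene ranked 13, with 1 read in untreated PIA. All 16 had reads in healthy RTD-1 libraries, between 20 and 11099 in total per gene with a median of 58, and 11 of them were detected in all 10. Among all 16879 rows, 49 had 0 reads in the 45 libraries that were neither one of the 3 nor healthy RTD-1. Each of those 49 had reads in healthy RTD-1 libraries, and 19 of them reached 10 reads in each of the 3 saline libraries. The 3 and the healthy RTD-1 libraries were also the deeper ones. The 17 other saline libraries together held 32177171 reads in genes and the 3 held 16654639. Depth cannot be told apart here from any other difference between these sets of libraries, and a cause was not tested.

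The gene ranked 2 shows the class at its highest level in the 3 libraries. It held 622 normalized reads in the day 1 library, 786 in the day 3 library and 1105 in the day 5 library. All 45 libraries outside the 3 and the healthy RTD-1 groups were at 0. Healthy RTD-1 libraries held 7.22, 1.03, 9.50, 8.39 and 6.52 on day 3 and 9.86, 11.6, 9.38, 11.6 and 5.40 on day 5. The 3 saline libraries thus averaged 104 times the healthy RTD-1 mean for this gene.

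The gene ranked 5, ENSRNOG00000011292, had a different balance between the same libraries. It held 545, 383 and 339 normalized reads in the day 1, day 3 and day 5 saline libraries and 0 in the 45 others. Healthy RTD-1 libraries held 372, 412, 417, 436 and 471 on day 3 and 281, 393, 527, 460 and 642 on day 5. The 3 saline libraries fell within the healthy RTD-1 range, and the ratio of the means was 0.958. Over the 16 genes this ratio ran from 0.958 to 375, with a median of 64.7, so the 3 saline libraries and the healthy RTD-1 libraries held these genes in different proportions.

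Of the 21 genes with 0 reads in some of the 17, ranked between 4 and 54, the median D was 5.84. They totalled 1 to 144 reads per gene over the 17 libraries and 49.8 to 532 normalized reads on average in the 3. The gene ranked 9 held 297, 301 and 319 normalized reads in the 3 libraries. It reached at most 4.73 in the other 17 and at most 2.005 in the PIA RTD-1 libraries, while healthy RTD-1 libraries held 30.0 to 53.9 with a median of 34.7. The gene ranked 16 went the other way in healthy RTD-1 tissue. It held 644, 550 and 402 normalized reads in the 3 libraries, 0 to 13.7 in the other 17 and 0 to 14.6 in the PIA RTD-1 libraries. Among the 10 healthy RTD-1 libraries, 8 were at 0 and the highest was 0.435.

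The 113 genes with reads in every saline library were raised by less. The median ratio of the 3 to the other 17 was 2.77, with a range from 1.88 to 712. The top of that range was the gene ranked 1, ENSRNOG00000031207. It held 15692 normalized reads in the day 1 library, 16135 in the day 3 library and 9664 in the day 5 library. The other 17 saline libraries ran from 3.85 to 42.2 with a median of 16.7, and the 20 PIA RTD-1 libraries from 3.02 to 47.1 with a median of 13.0. Untreated PIA libraries held 3.38, 6.96, 14.5 and 23.0, and naive libraries 8.00, 5.76, 5.99 and 4.17. Healthy RTD-1 libraries held 0.401, 0.517, 1.30, 0.839 and 1.30 on day 3 and 0.657, 0.330, 0.782, 0.415 and 0 on day 5, below every other library.

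The gene ranked 48, ENSRNOG00000042499, had the second most reads in the 3 libraries, a count not corrected for gene length. It held 2943, 3466 and 2563 normalized reads there, against 176 to 813 in the other 17, with a median of 444. PIA RTD-1 libraries held 261 to 821 with a median of 452, and healthy RTD-1 libraries 470 to 716 with a median of 655. The gene ranked 47 followed closely, with 2452, 2429 and 2493 in the 3 libraries and 181 to 568.01 in the other 17. For both genes the 3 libraries lay above all 55 others.

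The gene ranked 66, ENSRNOG00000028690, was close to absent in healthy RTD-1 tissue and present in every other library. It held 932, 652 and 522 normalized reads in the 3 libraries and 74.7 to 272 in the other 17, with a median of 174. Naive libraries held 79.998, 133, 159 and 108, and untreated PIA libraries 250, 297, 140 and 130. PIA RTD-1 libraries ran from 79.4 to 347 with a median of 196. Healthy RTD-1 libraries held 1.20, 0, 1.30, 1.26 and 1.30 on day 3 and 2.30, 1.98, 2.35, 1.24 and 0.360 on day 5.

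**Figure D3:**
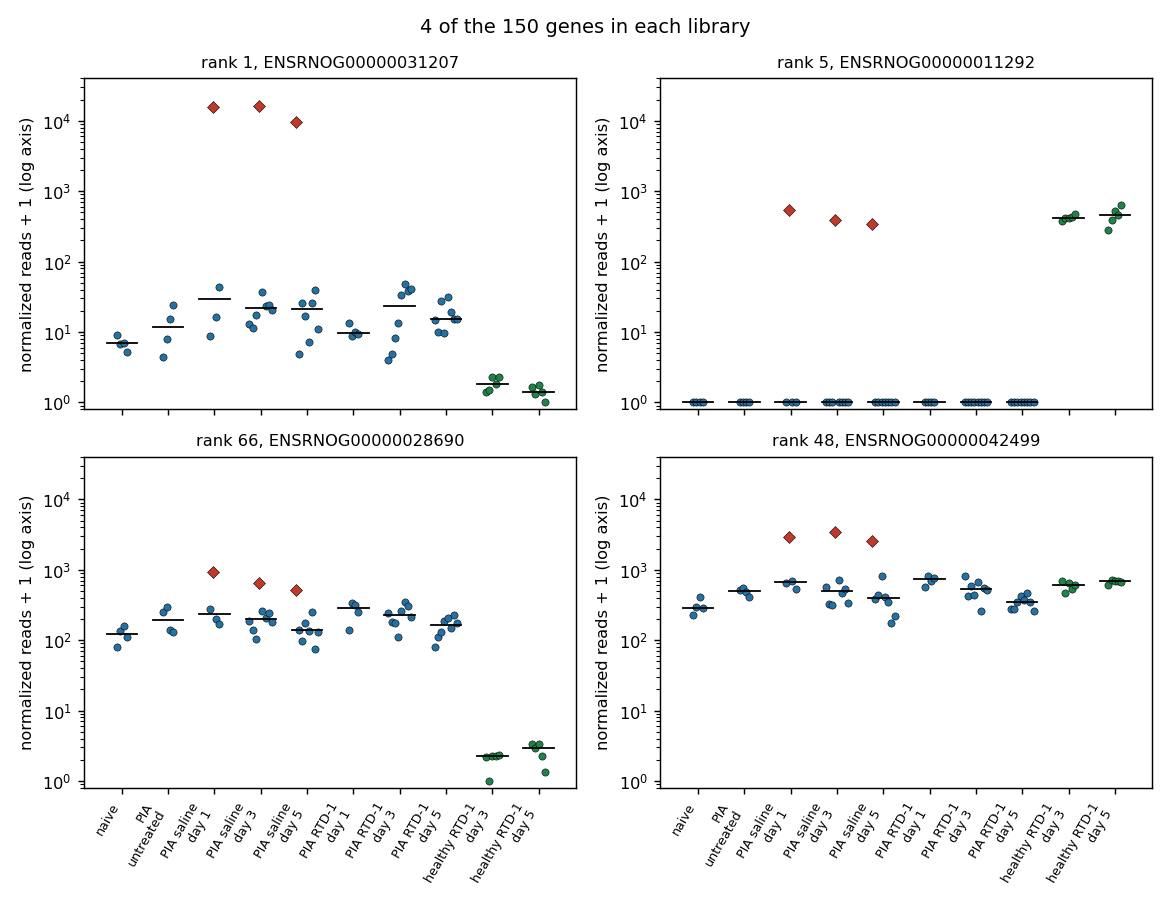
Normalized reads + 1 on a log axis for the genes ranked 1, 5, 66 and 48 in each of 58 libraries by group, with the 3 saline libraries as red diamonds, healthy RTD-1 libraries in green and group medians as lines. The gene ranked 5 is at 0 reads in 45 libraries and at 281 to 642 in healthy RTD-1 libraries, and the genes ranked 1 and 66 are lowest in healthy RTD-1 libraries.

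The arthritic and healthy groups compared under RTD-1 held no library that the rule used. The fit covered the 38 libraries of the 7 groups without saline, so the untreated PIA and naive libraries, which entered the rule's limit, also bore on the filter and on the estimate of spread (limma on log2(normalized reads + 1), Benjamini-Hochberg adjusted p under 0.05, two-sided). A filter of at least 10 normalized reads in at least 4 of those libraries kept 12889 genes, among them 125 of the 150. Fold changes on this scale understate the change of low genes.

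More of the genes tested were lower than higher in arthritic against healthy RTD-1 tissue. The ranges of reads in genes did not overlap, at 0.465 to 3.75 megareads for PIA RTD-1 and 4.44 to 7.72 for healthy RTD-1. Disease therefore cannot be told apart here from other differences between these sets of libraries. Thinning the reads, given below, acts on depth alone. The cause of the differences was not tested. The rule had kept only genes whose untreated PIA and naive means were close, while all genes tested include genes outside that limit. The choice of genes thus bears on the shares called lower or higher. A gap to the share of all genes tested, here and under the alternatives below, is therefore not read as a property of the genes. On day 3, 61 of the 125 tested were lower in PIA (31.4% of all genes tested) and 10 were higher (17.9%). On day 5, 71 were lower (35.1% of all genes tested) and 6 higher (11.4%). In either direction 71 of 125 passed on day 3 (49.3% of all genes tested) and 77 on day 5 (46.6%). As shares of the 125, the lower calls came to 48.8% on day 3 and 56.8% on day 5. 55 of the 125 were lower on both days (25.7% of all genes tested), 6 were higher on both (10.6%) and 0 were called in opposite directions (0%). The median difference, PIA minus healthy, was -0.48 log2 over the 125 on day 3, beside -0.20 over all genes tested, and -0.69 on day 5, beside -0.32.

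8 of the 125 genes passed the filter with the healthy RTD-1 libraries and not without them, which favours genes high in those libraries. Of the 117 that passed on the other groups alone, 54 were lower and 10 higher on day 3, and 65 lower and 6 higher on day 5. The share of all genes that passed in this way was not counted, so nothing is read from these counts. Other genes passed only outside the healthy libraries, which favours the opposite direction. Of the 111 that passed both within the PIA RTD-1 and within the healthy libraries, 53 were lower and 6 higher on day 3 (31% and 16.1% of the 11165 genes that did so), and 64 lower and 3 higher on day 5 (36.1% and 9.33%). The 2 sets of libraries did not overlap for 40 lower genes on day 3 (16.4% of all genes tested) and 56 on day 5 (18.9%). They did not overlap for 5 higher genes on day 3 (8.60%), ranked 1, 59, 61, 66 and 82, and 3 on day 5 (5.28%), ranked 1, 59 and 66. The gene ranked 82 is given because the count is small and was chosen after its values were seen.

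The direction split moved with the scaling. With TMM factors the counts were 56 lower and 16 higher on day 3 and 60 lower and 12 higher on day 5, where among all genes tested 28.4% were lower and 24.8% higher on day 3 and 23.0% and 20.1% on day 5. With quantile normalization they were 55 lower and 16 higher on day 3 and 60 lower and 14 higher on day 5, against 26.1% and 26.8% of all genes tested on day 3 and 22.2% and 22.7% on day 5. The median of all genes tested was -0.06 log2 on day 3 and -0.05 on day 5 with TMM factors. With PIA RTD-1 replicates 1 to 4 alone the counts were 52 lower and 11 higher on day 3 and 72 lower and 4 higher on day 5, against 23.6% and 19.6% of all genes tested, and 34.1% and 8.99%. With replicates 5 to 8 alone they were 63 lower and 8 higher, and 68 lower and 7 higher, against 34.7% and 13.8%, and 29.6% and 12.1%. Healthy RTD-1 libraries were deeper than PIA RTD-1 libraries without exception. With every library thinned to at most 1500000 reads, 57 genes were lower and 10 higher on day 3 and 71 lower and 6 higher on day 5, against 28.5% lower and 2209 of 12983 higher among all genes tested on day 3, and 32.0% and 11.2% on day 5.

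The genes ranked 5, 9, 13, 23 and 26 passed the filter through the healthy RTD-1 libraries, where they were high. The filter thus favoured this direction, and they are described with no test. The gene ranked 5 was at 0 reads in the 20 PIA RTD-1 libraries and at 281 to 642 normalized reads in healthy RTD-1 libraries. Healthy RTD-1 tissue was thus at least 2685-fold higher against a floor of 3 reads over the 20. Naive libraries were at 0 reads for this gene. The genes ranked 13 and 23 were also at 0 reads in the 20 PIA RTD-1 libraries. They were at least 163-fold and at least 111-fold higher in healthy RTD-1 tissue, with medians of 28.9 and 19.4 normalized reads there. The gene ranked 9 averaged 0.294 ± 0.566 normalized reads in PIA RTD-1 day 3 (SD, n = 8) and 36.3 ± 5.52 in healthy RTD-1 day 3 (SD, n = 5). The gene ranked 26 had 25 reads in all 20 PIA RTD-1 libraries together and 604 in the 10 healthy ones.

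Several genes with many reads in the 3 saline libraries were also more abundant in healthy than in arthritic RTD-1 tissue. The gene ranked 55 held 1031, 787 and 696 normalized reads in the 3 libraries. It averaged 150.2 ± 31.6 in PIA RTD-1 day 3 (SD, n = 8) and 799.8 ± 161 in healthy RTD-1 day 3 (SD, n = 5), a difference of -2.40 log2 (SE 0.191, limma adjusted p = 1.16e-13), and the day 5 difference was -2.53. The gene ranked 85 held 890, 946 and 947 in the 3 libraries and a median of 1035 in healthy RTD-1 libraries. Its differences were -1.71 log2 on day 3 and -2.01 on day 5 (SE 0.148, limma adjusted p = 1.18e-12 and 2.18e-14). The gene ranked 115 differed by -1.06 log2 on day 3 and -1.45 on day 5, and the gene ranked 91 by -0.78 and -1.27. For the genes ranked 55, 85 and 115, the 3 saline libraries fell within or close to the healthy RTD-1 range, with ratios of the means of 1.07, 0.920 and 0.937.

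Other genes with many reads in the 3 libraries differed by less, or passed the test on 1 day alone. The gene ranked 47 differed between PIA and healthy RTD-1 tissue by 0.15 log2 on day 3 and -0.02 on day 5 (SE 0.166, limma adjusted p = 0.462 and 0.943). The gene ranked 76 differed by -0.02 on day 3 (SE 0.176, limma adjusted p = 0.948) and by -0.62 on day 5 (limma adjusted p = 0.00375), where TMM factors gave -0.34 (limma adjusted p = 0.0201). The gene ranked 99 differed by -0.32 on day 3 (SE 0.137, limma adjusted p = 0.0478), a call lost in 20 alternative fits, and by -0.20 on day 5 (limma adjusted p = 0.236). A p that misses the threshold does not show that the levels were equal.

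Few genes were higher in PIA than in healthy RTD-1 tissue. Of those described next, the genes ranked 1, 16, 61 and 66 passed the filter outside the healthy RTD-1 libraries and not within them. The filter thus favoured this direction, and they are given with no test. The gene ranked 66 held 1.01 ± 0.567 normalized reads in healthy RTD-1 day 3 (SD, n = 5) and 228 ± 75.3 in PIA RTD-1 day 3 (SD, n = 8). On day 5 it held 1.65 ± 0.843 in healthy RTD-1 tissue (SD, n = 5) and 158 ± 50.3 in PIA RTD-1 tissue (SD, n = 8). The gene ranked 1 averaged 22.9 ± 18.1 in PIA RTD-1 day 3 (SD, n = 8) and 0.871 ± 0.423 in healthy RTD-1 day 3 (SD, n = 5). On day 3 its PIA RTD-1 replicates 1 to 4 held 3.02, 3.91, 7.36 and 12.4 and replicates 5 to 8 held 32.2, 47.1, 37.8 and 39.7. All 8 lay above the 10 healthy RTD-1 libraries.

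The gene ranked 16 held 0 to 14.6 normalized reads in PIA RTD-1 libraries and at most 0.435 in healthy ones. The gene ranked 59 averaged 35.4 ± 16.6 in PIA RTD-1 day 3 (SD, n = 8) and 10.2 ± 3.04 in healthy RTD-1 day 3 (SD, n = 5), a difference of 1.61 log2 (SE 0.284, limma adjusted p = 8.98e-06), and 1.55 on day 5. On day 3 it was 0.97 with replicates 1 to 4 alone (limma adjusted p = 0.00732) and 2.25 with replicates 5 to 8 alone (limma adjusted p = 4.86e-08). The gene ranked 110 differed by 0.56 log2 on day 5 (SE 0.228, limma adjusted p = 0.0390), a call lost in 14 alternative fits, with 0.21 in replicates 1 to 4 alone (limma adjusted p = 0.515) and 0.92 in replicates 5 to 8 alone (limma adjusted p = 3.74e-04). The genes ranked 1, 16, 59 and 66 thus combined high levels in the 3 saline libraries with lower levels in healthy than in PIA RTD-1 tissue. The gene ranked 61 did so on day 3, by 1.32 log2. On day 5 it was not among the 5 called genes with the largest difference in that direction. Most of the calls among the 125 were lower in PIA.

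**Figure D4:**
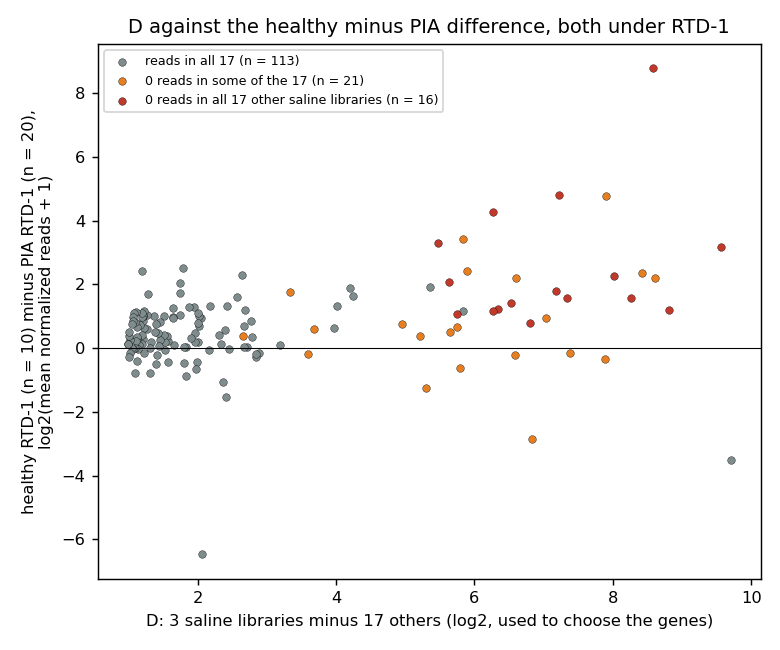
Each of the 150 genes by D (log2, used to choose the genes) and by the log2 difference of healthy RTD-1 (n = 10) minus PIA RTD-1 (n = 20) mean normalized reads + 1, coloured by class. Genes at 0 reads in all 17 other saline libraries (red) lie at or above 0 on the vertical axis, and the genes ranked 1, 16 and 66 lie lowest.

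None of the 125 genes differed in its PIA-minus-healthy difference between day 5 and day 3, and the lowest limma adjusted p was 0.652, and no gene of the 12889 did (0%). At an unadjusted p under 0.05 the counts were 11 of 125 and 943 of 12889. Within healthy RTD-1 tissue, 0 of the 125 genes differed between day 5 and day 3 (0% of all genes tested), and limma voom also gave 0. At an unadjusted p under 0.05 they were 0 of 125 and 47 of 12889.

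Over the days of RTD-1 in arthritic rats, the genes that passed the test were lower at the later day in the deposited scaling, while TMM and quantile scaling gave calls in both directions. Between day 1 and day 3, 0 of 125 passed the test (0% of all genes tested), with limma voom also at 0, and 22 of 125 and 1806 of 12889 had an unadjusted p under 0.05. Between day 3 and day 5, 1 gene was lower (1.26% of all genes tested), the gene ranked 48, and 0 were higher (0.434%), where 1.7% of all genes passed in either direction. Between day 1 and day 5, 23 of 125 were lower (20.3% of all genes tested) and 0 higher (2.41%), by 0.47 to 1.07 on the log2 scale. The share of the 125 that fell was 18.4%, close to that of all genes tested. With TMM factors the day 1 to day 5 calls were 9 lower (8.6% of all genes tested) and 4 higher (8.83%). With quantile normalization they were 8 lower (8.29%) and 4 higher (8.74%). The median of all genes tested was -0.27 log2 as deposited and 0.01 with TMM factors. Without PIA RTD-1 day 1 replicate 3 the counts were 13 lower (10.5% of all genes tested) and 1 higher (1.68%).

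The gene ranked 48 held 707 ± 109 normalized reads on day 1 (SD, n = 4), 533 ± 169.6 on day 3 (SD, n = 8) and 346 ± 75.7 on day 5 (SD, n = 8). The day 5 minus day 1 difference was -1.05 log2 (SE 0.191, limma adjusted p = 2.77e-04). Day 5 minus day 3 was -0.58 (SE 0.156, limma adjusted p = 0.0424), a call lost in 14 alternative fits, with -0.75 in replicates 1 to 4 alone (limma adjusted p = 0.0128) and -0.42 in replicates 5 to 8 alone (limma adjusted p = 0.691). The gene ranked 148 went from 881 ± 96.2 on day 1 (SD, n = 4) to 430.4 ± 38.2 on day 5 (SD, n = 8), a difference of -1.03 log2 (SE 0.174, limma adjusted p = 1.19e-04). The gene ranked 122 went from 464 ± 101 (SD, n = 4) to 227 ± 74.6 (SD, n = 8), a difference of -1.07 log2 (SE 0.243, limma adjusted p = 0.00203). The gene ranked 74 fell by 0.95 and the gene ranked 71 by 1.05 on the log2 scale (limma adjusted p = 0.00176 and 0.0140). The call for the gene ranked 71 was lost in 5 alternative fits, with -0.77 under TMM factors (limma adjusted p = 0.0739) and -0.32 with PIA RTD-1 replicates 1 to 4 alone (limma adjusted p = 0.313). The gene ranked 74 was at -0.55 with thinned reads and TMM factors (limma adjusted p = 0.0845).

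The remaining comparisons used groups that entered the rule and are given as a description. Against naive tissue, 50 of the 125 genes were higher in healthy RTD-1 tissue on day 3 (12.5% of all genes tested) and 2 lower (1.35%). On day 5, 53 were higher (14.7%) and 2 lower (1.27%). The 2 lower genes were those ranked 1 and 66 on both days. These 2 genes passed the filter outside the healthy RTD-1 libraries and not within them, which favoured this direction. Other genes among the 125 passed only with the healthy RTD-1 libraries, which favours higher calls. No conclusion is therefore drawn from the calls against naive tissue. Against untreated PIA, 0 of the 125 genes passed the test after 1 or 3 days of RTD-1 (0% of all genes tested each), and 18 were lower (14.3%) and 0 higher (1.64%) after 5 days. Between RTD-1 and saline of the same day, a fit on all 58 libraries tested 131 of the 150 genes. It called 0 of them on day 1 (0% of all genes tested), 0 on day 3 (0.00766%) and 0 on day 5 (0%). Each saline group holds 1 of the 3 libraries, so the choice of genes set their spread there, and nothing is read from these counts.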

How the data were processed

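Single 75 nt reads from a stranded total RNA kit were used, per the labels' protocols. Per the submitters' processing notes, which give no versions, HISAT and DESeq were used. The genome build and its annotation were not stated in the sources used here. The deposited table is on a log2 scale. From its values, each entry is the log2 of whole reads times 1 factor per library, with 0 reads held as 0.9 of a read, and whole reads were recovered for 100% of values above 0 (relative tolerance 0.001). The factor ran from 1.71 to 17.5 megareads, and reads were scaled to the median factor of 5.75. The table had 16880 rows, and the 1 row without an identifier held 0.000384% to 0.0137% of reads and was left out.

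The test was limma 3.58.1 (R 4.3.3) on log2(normalized reads + 1), empirical Bayes with trend and robust settings, checked on simulated data. The saline libraries were left out of it, since the genes were chosen on them. The design had assumed linear values. Members, lists and tests were chosen with earlier results of these data known. Naming was planned for the 12 genes highest in D, the 12 with most reads in the 3 libraries and up to 5 called per direction and contrast. Genes are given by rank, with at most 2 identifiers per direction. Of the 12 highest in D, only those ranked 1, 2, 5, 7 and 9 are described singly. The gene and cell marker lists needed symbols, which 0 identifiers had, and were not analysed here. Every pair of libraries within a group differed by more than sampling noise (chi-square per degree of freedom at least 2.48). Alternatives were other pseudocounts, filters, scalings, fits and depths, a replicate block, limma voom, replicates 1 to 4 or 5 to 8 alone and each library left out.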

Additional observations from a re-analysis of the deposited data

Results flagged for a closer look

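Each group of 4 to 8 libraries was searched for a library far from the rest, for the share of reads in the 150 genes and for the genes ranked 1, 5, 66 and 48. Of 45 groups tested, 17 values stood apart, where chance gives about 1 in 20 groups. 15 of the 17 belonged to the 3 saline libraries that chose the genes, so they restate the rule. These were the shares of 2.34%, 2.26% and 1.97% in the day 1, day 3 and day 5 libraries, against 0.378% to 0.466% in the other saline libraries. The gene ranked 1 held 15692, 16135 and 9664 normalized reads there, the gene ranked 5 held 545, 383 and 339, the gene ranked 66 held 932, 652 and 522, and the gene ranked 48 held 2943, 3466 and 2563.

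The other 2 values came from healthy RTD-1 day 3 replicate 2, which had no part in the rule. Its share of reads in the 150 genes was 0.622%, below 0.691% to 0.718% in the other 4 libraries of its group. The gene ranked 66 was at 0 normalized reads there and at 1.20 to 1.30 in the other 4, which is 0 reads against 3 in each of the others. It was the shallowest healthy RTD-1 library, with 4.44 megareads in genes against 5.18 to 7.72. It also detected 11 of the 16 genes at 0 reads in the 17 other saline libraries, where the other 9 healthy RTD-1 libraries detected 14 to 16.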

How the results depend on the processing

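Counts of the 125 tested genes between PIA and healthy RTD-1 tissue stayed within 1.5 times the reported value under each alternative run, except day 3 with a filter of 50 normalized reads, at 47 (6 higher and 41 lower), where fewer genes were tested. Leaving out a library gave 63 to 73 on day 3 and 69 to 79 on day 5. On day 3, 63 was 54 lower (27.9% of all genes tested) and 9 higher (17.2%), and 73 was 63 lower (33.5%) and 10 higher (16.3%). On day 5, 69 was 64 lower (33.8%) and 5 higher (10.7%) without PIA RTD-1 replicate 6. Without healthy RTD-1 replicate 3 it was 63 lower (30.3%) and 6 higher (10.9%). The 79 were 74 lower (35.6%) and 5 higher (10.7%). Day 5 against day 3 of RTD-1 in PIA gave 1 gene as reported. It gave 2, all lower, with a filter of 50 (2.42% of all genes tested), TMM factors (2.0%) or limma voom (3.03%). It gave 0 with all 58 libraries in the fit, with only the groups compared, with a replicate block, with thinned reads and with replicates 5 to 8 only. It gave 9, all lower, with replicates 1 to 4 only (10.4% of all genes tested). Without the 2 shallowest libraries (day 3 replicates 6 and 8), an alternative added after seeing the data, it gave 12, all lower (8.13%). Leaving out single libraries gave 0 to 7, with 7, all lower, without day 3 replicate 6 (7.98% of all genes tested). The count was 2, all lower, without day 5 replicate 3, 5, 6 or 7 (1.49%, 1.14%, 2.46% and 2.23% of all genes tested). It was 0 without day 3 replicate 1, 3, 4, 5, 7 or 8 or day 5 replicate 1, 2 or 8. Day 5 against day 1, 23 genes as reported, gave 13 with TMM factors, 12 with quantile normalization, 9 with all 58 libraries, 15 with a replicate block and 10 with thinned reads and TMM factors (added after seeing the data). Leaving out single libraries gave 14 to 30. The 14, without day 1 replicate 3, were 13 lower (10.5% of all genes tested) and 1 higher (1.68%). The 30, without day 5 replicate 4, were 29 lower (21.7%) and 1 higher (2.15%). The cause of these moves was not tested. Day 3 against day 1 and healthy day 5 against day 3 gave 0 under each alternative run.

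Of the 150 genes, 125 were chosen again with TMM factors, 138 with thinned reads, 118 with a pseudocount of 8, 101 without the limit on PIA minus naive, and 135 to 142 without 1 of the 3 libraries. For 23 named genes, those favoured by the filter included, 44 differences were recomputed 1182 times: 1124 kept their side of the threshold, 58 lost their call and 0 changed sign with a call. The losses fell on 9 differences, chiefly day 3 of the gene ranked 99, day 5 of the gene ranked 110, and day 5 against day 3 of the gene ranked 48. Same-numbered libraries showed little shared deviation (31 pairs, r from -0.36 to 0.23, 4 above 0.1, 7 best with their own number). With so few libraries per group this cannot exclude a pairing by number, and the main fit used none. With the replicate block the counts between PIA and healthy RTD-1 tissue were 63 on day 3 and 70 on day 5. On day 3, 53 were lower (26.3% of all genes tested) and 10 higher (17.6%). On day 5, 62 were lower (28.8%) and 8 higher (11.2%). Genes with a few reads per library are limited by depth, and 25 of the 150 did not pass the filter.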
